A study of Homo sapiens with 9 samples.

Results

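Interferon-stimulated and RNA-sensing genes were followed in DLD1 cells, a colorectal adenocarcinoma line, upon depletion of Lamin A/C or Lamin B2. The 39 genes were chosen by name, as sensors of foreign RNA, the transcription factors they act through, and genes that interferons switch on. All 39 were found among the 31033 gene names on the arrays, with 63 probes between them. Expression was profiled on 9 Agilent single-color arrays. A group of 3 untreated controls received no siRNA, 3 Lamin A/C Kd samples were transfected with siRNA against LMNA at 100 nM for 48 h, and 3 Lamin B2 Kd samples were transfected with siRNA against LMNB2 at the same dose and time. The arrays of a group are independent biological replicates of the same line. Each Kd used 1 siRNA sequence, so upon either Kd the loss of the lamin, transfection itself and any other action of that siRNA cannot be told apart. Transfection was shared when the knockdowns were set against each other, but their siRNA sequences differed.

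Type I and type III interferons are secreted proteins that signal through JAK kinases to a complex that includes STAT2 and IRF9, which binds the interferon-stimulated response element and turns on a broad antiviral program. Upstream, the helicases DDX58 (RIG-I) and IFIH1 (MDA5) sense double-stranded or 5′-triphosphate RNA in the cytosol, TLR3 senses double-stranded RNA in endosomes, and the kinase EIF2AK2 (PKR) halts translation when it binds such RNA. Several of the target genes can also be switched on directly by IRF3 without interferon.

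The promoters of these genes were searched for the letters of the response element. Promoter windows from 250 bases before to 50 bases after the start site (RefSeq, GRCh38.p14) were matched for 30 of the 39 genes. OAS2, OASL, IRF3, IRF7, IFIT2, IFITM2, USP18, MX2 and GBP2 were not matched. The core of the response element, GAAA followed by any 2 bases and a further GAAA, was searched on both strands, so that it also reads TTTC, any 2 bases, TTTC. It was present in 24 of the 30 genes, against 4.38% of the 27305 genes in the promoter table and 3.57% of its 35116 promoters. The 6 without it in these windows were DDX58, OAS1, STAT2, IRF1, IFI35 and HERC6. The gamma-activated site TTCNNNGAA, a palindrome that reads the same on both strands, was present in 10 of 30 genes, among them TAP1, IRF1 and PLSCR1, against 9.38% of all genes. Shown here are the stretches that hold the core in 5 genes whose array signals differed between groups, each written 5′ to 3′ on the strand of its gene, with the core or its reverse complement in capitals. They lie at chr10:89392493-89392552 (IFIT1, plus strand), chr1:27672263-27672362 (IFI6, minus strand), chr4:88456979-88457068 (HERC5, plus strand), chr15:88638916-88638975 (ISG20, plus strand) and chr6:32853805-32853864 (TAP1, minus strand), all upstream of the start site. IFIT1 carries 2 copies here, IFI6 3, HERC5 3, ISG20 1 and TAP1 2, with 1 pair of overlapping copies in HERC5 and the pair in TAP1 overlapping as well.
IFIT1: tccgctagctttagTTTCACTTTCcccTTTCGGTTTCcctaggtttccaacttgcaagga
IFI6: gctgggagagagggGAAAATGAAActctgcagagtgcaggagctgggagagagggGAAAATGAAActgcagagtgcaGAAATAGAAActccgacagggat
HERC5: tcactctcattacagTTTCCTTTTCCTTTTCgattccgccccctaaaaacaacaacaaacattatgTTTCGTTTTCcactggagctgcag
ISG20: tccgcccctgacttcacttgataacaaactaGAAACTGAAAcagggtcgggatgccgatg
TAP1: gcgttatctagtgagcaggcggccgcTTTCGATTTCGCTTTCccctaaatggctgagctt
A match to these letters is a description of the sequence and was not tested as a binding site.

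Values are log2 signals minus the median of each array, so that 0 is the array median and a difference of 1 is a 2-fold change. The targeted genes checked the labels. LMNA stood at 8.79, 8.79 and 8.91 in controls and at 4.84, 5.14 and 5.03 upon Lamin A/C Kd, and fell by 3.83 ± 0.22 (SE) on the log2 scale (limma, adjusted p = 0.000224). LMNB2 stood at 5.44, 5.51 and 5.74 in controls and at 3.10, 3.48 and 3.15 upon Lamin B2 Kd, and fell by 2.32 ± 0.14 on the same scale (adjusted p = 0.00052). LMNB1, a lamin that neither siRNA was directed at, did not pass in either Kd (adjusted p of 0.168 and 0.347), and ACTB and GAPDH differed from control by at most 0.17. Of 12 markers of colorectal epithelium, 11 were well above background on all 9 arrays, with KRT18 the brightest. Of 11 immune markers, CLEC4C was above background on no array and the pan-leukocyte gene PTPRC, CD3D, MS4A1 and FCGR3A on some only. The summed signal of the immune markers was 7.39 to 10.5 times the array median in controls, 7.61 to 8.50 upon Lamin A/C Kd and 8.78 to 10.8 upon Lamin B2 Kd, with CD14 the brightest. None of these markers passed the adjusted threshold (limma, with 0, 1 and 0 of 6 tested at an unadjusted p below 0.05 upon Lamin A/C Kd, upon Lamin B2 Kd and between the knockdowns). NKG7, a cytotoxic granule gene, met the 2-fold criterion of the study upon Lamin B2 Kd with 1.20 ± 0.36 (adjusted p = 0.0975), and with 0.79 fell short of it without Lamin B2 Kd replicate 3. The 12 epithelial markers went both ways, with 5 above and 7 below 0 upon Lamin B2 Kd and 7 above and 5 below between the knockdowns. Their medians were -0.04 and 0.09, where those of all genes were -0.14 and 0.05. Among these markers, VIL1 fell by 1.06 ± 0.21 upon Lamin B2 Kd (adjusted p = 0.0338), and CLDN3 was 1.07 ± 0.20 higher upon Lamin A/C Kd than upon Lamin B2 Kd (adjusted p = 0.00898). A second probe for VIL1 gave -0.66 (adjusted p = 0.201) and for CLDN3 0.19 (adjusted p = 0.615). The VIL1 call was lost under 11 of the 19 alternatives tried, among them the omission of any control array, Lamin A/C Kd replicate 1 or 3 or Lamin B2 Kd replicate 1. Of 9 stromal and endothelial markers, 3 were above background on all arrays and LUM on none, and VWF, the brightest, was 0.50 ± 0.14 higher upon Lamin A/C Kd than upon Lamin B2 Kd (adjusted p = 0.0445), which was lost under 14, with the 75th percentile shift and without any 1 array other than Lamin A/C Kd replicate 1 and Lamin B2 Kd replicate 2. The part of these markers in the results on interferon-stimulated genes was not tested. In whole-culture RNA, a lower signal from fewer expressing cells and from less RNA per cell cannot be told apart.

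Most of the 39 genes were detected in DLD1 cells, the untreated controls included. The brightest probe of 31 of the 39 genes was well above background on all 9 arrays, including all 4 RNA sensors. Of all 31033 gene names, 20251 had a probe well above background on all 9 arrays. IFIT3, IFI44, BST2, RSAD2, GBP1 and GBP2 were above background on some arrays only and were not tested, and IFI44L was tested only against controls. Testing required that a probe exceed background clearly in every replicate of 1 or both groups, which left 33 genes in each comparison with control and 32 between the knockdowns.

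In the fit over all 9 arrays more members passed between the knockdowns than in either comparison with control, an order that all genes shared. With only the 2 groups compared in the fit, 8 members passed upon Lamin A/C Kd, 0 upon Lamin B2 Kd (limma, 6 at an unadjusted p below 0.05) and 3 between the knockdowns, an order that all genes shared too, with 20.2%, 0.0453% and 7.91%. Upon Lamin A/C Kd, IFIT2 and ISG20 rose and TAP1 and PLSCR1 fell, and upon Lamin B2 Kd, IFIT1, MX1 and USP18 fell. Between the knockdowns, IFIT1, IFIT2, IFITM1, IFI6, HERC5, USP18, MX1 and ISG20 were higher upon Lamin A/C Kd, and TAP1 was lower. All of these differences were under 2-fold. No member met the study's criterion of a 2-fold change with an unadjusted p below 0.05 in any comparison (limma). IFI44L upon Lamin B2 Kd had an unadjusted p of 0.0928, but it was near background there and the size of its difference was not measured. At an unadjusted p below 0.05 without the fold criterion, 8 members differed upon Lamin A/C Kd, 7 upon Lamin B2 Kd and 15 between the knockdowns. These were 24.2%, 21.2% and 46.9% of the members tested, where 23.2%, 24.5% and 29.5% of all genes differed.

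The counts were read against all genes tested. With an adjusted p below 0.05 (limma over all 9 arrays, Benjamini-Hochberg over all probes tested), 4 of 33 members differed from control upon Lamin A/C Kd, where 8.94% of all 21821 genes passed, 3.15% upward and 5.79% downward. Upon Lamin B2 Kd, 3 of 33 members passed, where 4.39% of genes passed, 3.93% downward. Between the knockdowns 9 of 32 passed, 8 of them higher upon Lamin A/C Kd, where 15.7% of genes passed, 11.2% higher upon Lamin A/C Kd and 4.53% lower. Upward calls upon Lamin B2 Kd made up 0.462% of all genes. For the criterion of the study, which no member met, the shares of all genes were 2.2% upon Lamin A/C Kd (0.921% upward, 1.28% downward), 2.04% upon Lamin B2 Kd (0.824% and 1.21%) and 4.21% between the knockdowns (2.8% and 1.42%). Both knockdowns were compared with the same 3 controls.

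These counts moved with single arrays and with the scaling. Upon Lamin B2 Kd no member passed (limma, 4 to 16 at an unadjusted p below 0.05) once any 1 of the control or Lamin A/C Kd arrays or Lamin B2 Kd replicate 1 was left out, where 0.077% to 3.22% of all genes passed. Upon Lamin A/C Kd, 2 members passed without control replicate 2 or 3, IFIT2 and TAP1, and 9 passed without Lamin B2 Kd replicate 3, where IFIT1, IFI6, TLR3, IRF7 and IFITM2 joined the other 4. The share of all genes moved likewise, to 3.43% and 2.92% without control replicate 2 and 3 and to 20.9% without Lamin B2 Kd replicate 3. PLSCR1 no longer passed when any control or Lamin A/C Kd array was left out. With a 75th percentile shift in place of the median, the calls upon Lamin A/C Kd split into 5 up and 2 down, and with quantile normalization into 6 up and 2 down, where 15.2% and 14.3% of all genes passed, while the upward share of all calls went from 35.3% to 49.1% and 51.1%. Upon Lamin B2 Kd that share went from 10.5% to 37.7% and 26.1%, and between the knockdowns from 71.2% to 51.7% and 60%. Normexp background correction lowered it to 22.1% upon Lamin A/C Kd.

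**Figure D1:**
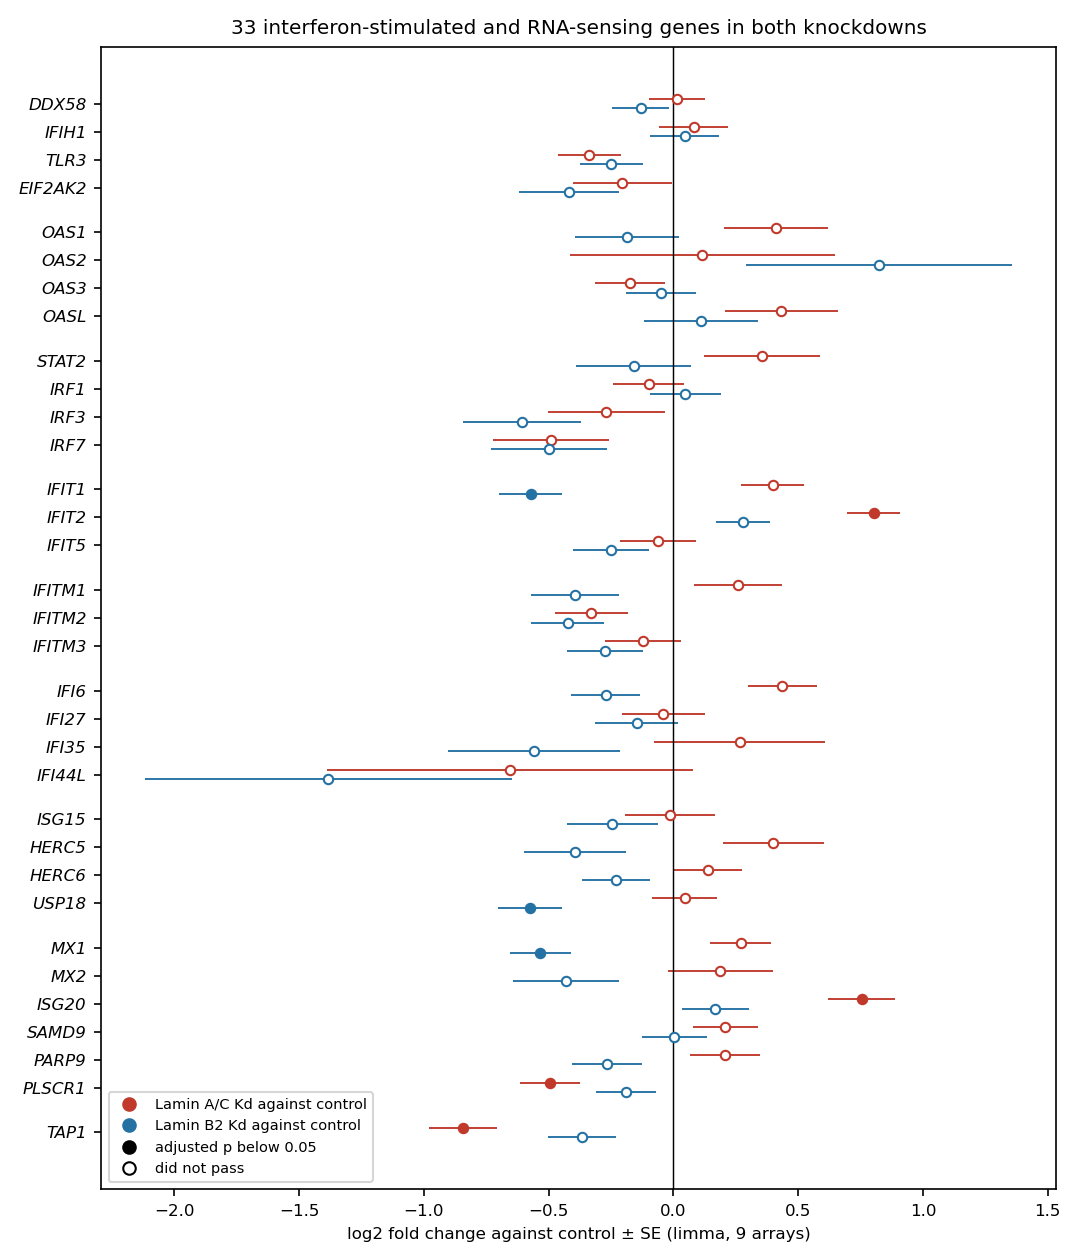
Log2 fold change against control with its SE (limma, 3 arrays a group) for the 33 tested genes, in blocks by role, upon Lamin A/C Kd in red and Lamin B2 Kd in blue, with filled points where the adjusted p was below 0.05. Filled red points are IFIT2, ISG20, PLSCR1 and TAP1, filled blue points are IFIT1, USP18 and MX1, and no filled point reaches 1 log2 unit.

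None of the 4 RNA sensors passed in any comparison, and on their brightest probes TLR3 upon Lamin A/C Kd was the 1 case with an unadjusted p below 0.05 (limma). DDX58 was 4.46, 4.45 and 4.59 in controls, 4.53, 4.39 and 4.63 upon Lamin A/C Kd and 4.43, 4.39 and 4.29 upon Lamin B2 Kd, a difference of 0.01 ± 0.11 and -0.13 ± 0.11 from control. IFIH1 differed by 0.08 ± 0.14 and 0.04 ± 0.14. The sensors with the smallest unadjusted p were TLR3 and EIF2AK2. TLR3 was 2.09, 2.11 and 2.22 in controls, 1.78, 1.67 and 1.95 upon Lamin A/C Kd and 1.99, 1.96 and 1.72 upon Lamin B2 Kd. Every Kd array lay below every control array, but the differences of -0.34 ± 0.13 and -0.25 ± 0.13 gave adjusted p of 0.135 and 0.261. EIF2AK2 was 6.13, 6.06 and 6.21 in controls, 5.98, 6.02 and 5.79 upon Lamin A/C Kd and 6.04, 5.89 and 5.22 upon Lamin B2 Kd. Its arrays did not overlap with controls either, with the lowest value on Lamin B2 Kd replicate 3, and adjusted p of 0.611 and 0.241. A second probe for EIF2AK2 gave -0.69 upon Lamin B2 Kd, wholly below controls, without passing (unadjusted p = 0.00834, adjusted p = 0.0949).

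The OAS enzymes, which make the 2′-5′ oligoadenylate that activates RNase L, did not pass either, with 1 unadjusted p below 0.05, for OAS1 between the knockdowns (limma). OAS1 was 2.51, 2.69 and 3.0 in controls, 2.84, 3.40 and 3.20 upon Lamin A/C Kd and 2.50, 2.88 and 2.27 upon Lamin B2 Kd, and the groups overlapped. OASL, a relative without the enzymatic activity, was -0.47, -0.55 and -0.07 in controls, -0.30, 0.31 and 0.19 upon Lamin A/C Kd and -0.43, 0.15 and -0.48 upon Lamin B2 Kd, again with overlap. The differences upon Lamin A/C Kd were 0.41 ± 0.21 for OAS1 and 0.43 ± 0.23 for OASL, with adjusted p of 0.269 and 0.288. OAS3 differed from control by -0.17 upon Lamin A/C Kd and -0.05 upon Lamin B2 Kd, and OAS2 was near background on several arrays, with an SE of 0.53.

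Among the transcription factors, IRF3 is the latent factor that the RNA sensors activate and IRF7 amplifies interferon production. IRF3 was 4.11, 4.08 and 4.10 in controls, 3.79, 3.95 and 3.75 upon Lamin A/C Kd and 3.75, 3.87 and 2.85 upon Lamin B2 Kd. IRF7 was 6.43, 6.44 and 6.48 in controls, 5.91, 6.03 and 5.93 upon Lamin A/C Kd and 6.26, 6.27 and 5.32 upon Lamin B2 Kd. On their brightest probes both were lower on every Kd array than on every control array. None of these differences passed (adjusted p of 0.563 and 0.17 for IRF3 and 0.235 and 0.229 for IRF7), and Lamin B2 Kd replicate 3 lay far below the other arrays of its group for both. Without that array, IRF7 passed upon Lamin A/C Kd. A second probe for IRF7 gave -0.69 upon Lamin A/C Kd (limma, adjusted p = 0.202) and -0.67 upon Lamin B2 Kd (adjusted p = 0.217). On Lamin B2 Kd replicate 2 that probe read 1.04, above its controls at 0.95, 0.98 and 0.95. STAT2 differed from control by 0.36 ± 0.23 and -0.16 ± 0.23, and IRF1 by -0.10 ± 0.14 and 0.05 ± 0.14.

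Of the IFIT proteins, IFIT1 binds viral RNA that lacks the host's cap methylation and blocks its translation. IFIT1 stood at 2.19, 2.19 and 2.44 in controls, at 2.59, 2.72 and 2.70 upon Lamin A/C Kd and at 1.74, 1.82 and 1.54 upon Lamin B2 Kd. The 3 groups did not overlap, with Lamin A/C Kd on top and Lamin B2 Kd at the bottom. IFIT1 fell by 0.57 ± 0.13 on the log2 scale upon Lamin B2 Kd (limma, adjusted p = 0.042), the gain of 0.40 ± 0.13 upon Lamin A/C Kd did not pass (adjusted p = 0.0843), and it was 0.97 ± 0.13 higher upon Lamin A/C Kd than upon Lamin B2 Kd (adjusted p = 0.00171), which is 1.96-fold. IFIT2 stood at 1.14, 1.10 and 1.15 in controls, at 2.06, 1.85 and 1.88 upon Lamin A/C Kd and at 1.38, 1.37 and 1.48 upon Lamin B2 Kd. It was above control on all 6 Kd arrays and highest upon Lamin A/C Kd. IFIT2 rose by 0.80 ± 0.11, or 1.74-fold, upon Lamin A/C Kd (adjusted p = 0.00403), and the difference of 0.28 ± 0.11 upon Lamin B2 Kd did not pass (adjusted p = 0.164). Between the knockdowns it differed by 0.52 ± 0.11 (adjusted p = 0.012). IFIT5, the remaining tested relative, differed from control by -0.06 ± 0.15 and -0.25 ± 0.15. Its second probe gave 0.17 upon Lamin A/C Kd, with all 3 arrays above controls, and 0.36 between the knockdowns (adjusted p = 0.0855), so its probes disagreed in direction upon Lamin A/C Kd.

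IFITM1, IFITM2 and IFITM3 are membrane proteins that block the entry of enveloped viruses. Their sequences are closely related, so that probes for 1 may also bind transcripts of another. IFITM1 was 1.03, 1.26 and 1.12 in controls, 1.38, 1.46 and 1.34 upon Lamin A/C Kd and 1.05, 0.84 and 0.33 upon Lamin B2 Kd. The knockdowns did not overlap and differed by 0.65 ± 0.18 (adjusted p = 0.0363), while neither differed from control past the threshold (adjusted p of 0.431 and 0.215). IFITM2 differed from control by -0.33 ± 0.15 and -0.42 ± 0.15, below every control on all 6 Kd arrays, and IFITM3 by -0.12 ± 0.15 and -0.28 ± 0.15. Neither passed in any comparison.

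IFI6 is a mitochondrial and endoplasmic reticulum protein induced by type I interferon. Its brightest probe read 3.0, 3.10 and 3.13 in controls, 3.37, 3.69 and 3.47 upon Lamin A/C Kd and 2.98, 2.84 and 2.59 upon Lamin B2 Kd, in 3 groups that did not overlap. The knockdowns differed by 0.71 ± 0.14 (adjusted p = 0.0101), whereas the differences of 0.44 ± 0.14 and -0.27 ± 0.14 from control did not pass. A second tested probe for IFI6 gave -0.11 between the knockdowns, so its probes disagreed, and with the mean of the probes the difference was 0.30 and did not pass (adjusted p = 0.129). IFI27 was 0.11 apart between the knockdowns on its brightest probe, and its second probe gave -0.35 (adjusted p = 0.114), with arrays that did not overlap. IFI44L was near background, at -1.52, -1.06 and -0.64 in controls, and exceeded it clearly on 1 array upon Lamin B2 Kd and on 2 upon Lamin A/C Kd. Its differences from control were not measured in size and did not pass (adjusted p of 0.666 and 0.28). IFI35 was 1.58, 1.65 and 1.53 in controls, 1.82, 1.96 and 1.77 upon Lamin A/C Kd and 1.56, 1.49 and 0.03 upon Lamin B2 Kd, where the last array alone set its mean apart, and the difference of 0.82 ± 0.34 between the knockdowns did not pass (adjusted p = 0.145).

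**Figure D2:**
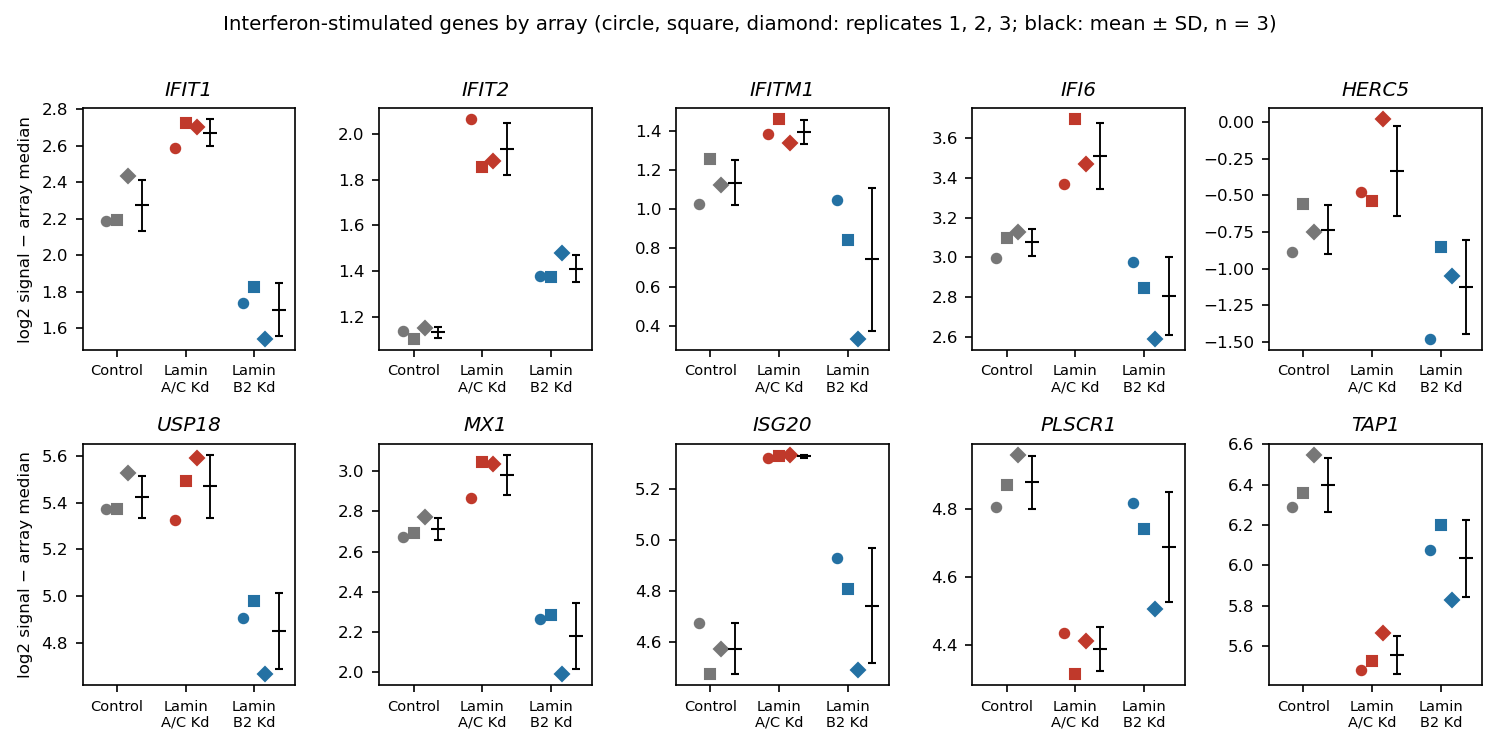
Log2 signal minus the array median on each of the 9 arrays for the 10 members that passed in at least 1 comparison, with replicates 1, 2 and 3 as circle, square and diamond and the mean ± SD (n = 3) in black. Each gene has its own axis, and levels are not comparable between genes. IFIT1, IFI6 and MX1 show Lamin A/C Kd above and Lamin B2 Kd below all controls, whereas IFIT2 and ISG20 stand above control upon Lamin A/C Kd and TAP1 and PLSCR1 below it.

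ISG15 is a ubiquitin-like protein that HERC5 attaches to other proteins and that USP18 removes. USP18 also binds the type I interferon receptor and damps its signal. ISG15 itself was 7.71, 7.80 and 7.73 in controls, 7.83, 7.63 and 7.74 upon Lamin A/C Kd and 7.83, 7.61 and 7.07 upon Lamin B2 Kd, overlapped between all groups and did not pass. USP18 was 5.37, 5.37 and 5.53 in controls, 5.32, 5.49 and 5.59 upon Lamin A/C Kd and 4.91, 4.98 and 4.67 upon Lamin B2 Kd. Its control and Lamin A/C Kd arrays were intermingled, and all 3 Lamin B2 Kd arrays lay below them. USP18 fell by 0.57 ± 0.13 upon Lamin B2 Kd (limma, adjusted p = 0.0446) and by 0.48 with an adjusted p of 0.0526 without Lamin B2 Kd replicate 3. It was 0.62 ± 0.13 higher upon Lamin A/C Kd than upon Lamin B2 Kd (adjusted p = 0.0128), and its second probe gave 0.52 (adjusted p = 0.0248), but -0.50 upon Lamin B2 Kd without passing (adjusted p = 0.0618). HERC5 was -0.89, -0.56 and -0.75 in controls, -0.48, -0.54 and 0.02 upon Lamin A/C Kd and -1.48, -0.85 and -1.05 upon Lamin B2 Kd. Here the Lamin B2 Kd arrays overlapped with controls, and the call came from the distance between the knockdowns, 0.79 ± 0.20 (adjusted p = 0.0291). HERC6, a relative of HERC5, was 0.37 ± 0.14 higher upon Lamin A/C Kd than upon Lamin B2 Kd without passing (adjusted p = 0.105).

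MX1 is an interferon-induced GTPase that traps viral nucleoproteins. It was 2.67, 2.69 and 2.77 in controls, 2.87, 3.04 and 3.04 upon Lamin A/C Kd and 2.26, 2.29 and 1.99 upon Lamin B2 Kd, again with 3 groups that did not overlap. MX1 fell by 0.53 ± 0.12 upon Lamin B2 Kd (limma, adjusted p = 0.0464), the difference of 0.27 ± 0.12 upon Lamin A/C Kd did not pass (adjusted p = 0.214), and the knockdowns differed by 0.80 ± 0.12 (adjusted p = 0.0033). MX2 had the same order of groups, with 0.72, 0.76 and 0.77 in controls, 0.89, 0.95 and 0.97 upon Lamin A/C Kd and 0.65, 0.56 and -0.25 upon Lamin B2 Kd, but its difference of 0.62 ± 0.21 between the knockdowns did not pass (adjusted p = 0.0828). ISG20, an exonuclease that degrades single-stranded RNA, was 4.67, 4.47 and 4.57 in controls, 5.32, 5.33 and 5.33 upon Lamin A/C Kd and 4.93, 4.81 and 4.49 upon Lamin B2 Kd. It rose by 0.75 ± 0.13, or 1.69-fold, upon Lamin A/C Kd (adjusted p = 0.0108), where its replicates were almost equal, and it overlapped with controls upon Lamin B2 Kd. The knockdowns differed by 0.59 ± 0.13 for ISG20 (adjusted p = 0.0186). PLSCR1, a phospholipid scramblase that potentiates interferon responses, went the other way. It was 4.81, 4.87 and 4.96 in controls, 4.44, 4.31 and 4.41 upon Lamin A/C Kd and 4.82, 4.74 and 4.51 upon Lamin B2 Kd, and fell by 0.49 ± 0.12 upon Lamin A/C Kd (adjusted p = 0.0352). SAMD9, which restricts poxviruses, differed from control by 0.21 ± 0.13 and 0.00 ± 0.13, and PARP9, a partner of the ubiquitin ligase DTX3L, by 0.21 ± 0.14 and -0.27 ± 0.14. PARP9 lay just outside the threshold between the knockdowns, with 0.47 ± 0.14 (adjusted p = 0.051). Its probes disagreed, since 1 other gave -0.32 upon Lamin A/C Kd and -0.59 (adjusted p = 0.0427) upon Lamin B2 Kd, and another gave -0.46 between the knockdowns.

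RSAD2 (viperin), an enzyme that makes a chain-terminating nucleotide, was seen on 1 array. It read 0.00 on Lamin A/C Kd replicate 1 and between -4.57 and -2.04 on the other 8 arrays, and its second probe read 0.22 on the same array. Only on that array was either probe above background. GBP1 was above background on 2 of the 3 Lamin B2 Kd arrays and on no other, with -2.41, -1.91 and -1.13 there, -2.99, -2.64 and -3.73 in controls and -4.08, -3.63 and -3.41 upon Lamin A/C Kd. Its second probe was above background on no array and read -4.05, -4.30 and -4.57 upon Lamin B2 Kd. GBP1 and GBP2, guanylate-binding proteins chiefly induced by interferon gamma, were not tested.

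TAP1 carries peptides into the endoplasmic reticulum for loading on HLA class I. It stood at 6.29, 6.36 and 6.55 in controls, at 5.48, 5.52 and 5.66 upon Lamin A/C Kd and at 6.08, 6.20 and 5.83 upon Lamin B2 Kd. Every Lamin A/C Kd array was below every other array. TAP1 fell by 0.84 ± 0.13, or 1.79-fold, upon Lamin A/C Kd (limma, adjusted p = 0.00773), differed by -0.37 ± 0.13 upon Lamin B2 Kd without passing (adjusted p = 0.152) and was 0.48 ± 0.13 lower upon Lamin A/C Kd than upon Lamin B2 Kd (log2 difference of -0.48, adjusted p = 0.0427). Of 16 further genes of antigen processing and presentation, none passed downward upon Lamin A/C Kd, though 3 lay wholly below controls, as 25.2% of all genes did. TAPBP, the tapasin that tethers TAP to HLA class I, rose by 0.73 ± 0.11 upon Lamin A/C Kd, from 5.45, 5.47 and 5.39 to 6.20, 6.12 and 6.18 (adjusted p = 0.00549), with 5.50, 5.29 and 5.40 upon Lamin B2 Kd. TAPBP had 4 tested probes, of which 3 gave 0.66 to 0.93 upon Lamin A/C Kd and 1 gave -0.11, and with the mean of the probes TAPBP no longer passed upon Lamin A/C Kd or between the knockdowns. TAP2 differed from control by -0.14 ± 0.15 and -0.16 ± 0.15, and B2M by 0.04 ± 0.14 and -0.20 ± 0.14. Of the 16 genes, 1 rose upon Lamin A/C Kd, and none of the 14 tested passed upon Lamin B2 Kd (limma, 1 at an unadjusted p below 0.05). Between the knockdowns all 16 had a log2 difference above 0, where 55.5% of all genes did. With other processing the number was 13 with the 75th percentile shift (42.7% of all genes), 14 with quantile normalization, 15 with normexp and 14 in the authors' table. Their median was 0.24 against 0.05 over all genes, and 2 of the 16 passed, where 15.7% of all genes did. These were TAPBP with 0.77 and the peptide-trimming ERAP2 (named LRAP on the array) with 0.69.

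By array, the 33 tested members were farthest from the control mean on Lamin B2 Kd replicate 3. Their median deviation from the control mean was 0.03, 0.07 and 0.18 on the Lamin A/C Kd arrays and -0.08, -0.13 and -0.52 on the Lamin B2 Kd arrays, where the medians over all genes were -0.08, -0.04 and -0.01, and -0.06, -0.08 and -0.32. Lamin B2 Kd replicate 3 was the lowest array of its group for 30 of the 33 members and for 64.7% of all genes. That array was the only one on a second slide, and it had 72.8% of spots well above background, within the 65.6% to 74.1% of the other 8. As a group, the median difference of the members was 0.08 upon Lamin A/C Kd, -0.25 upon Lamin B2 Kd and 0.28 between the knockdowns, where the median over all genes tested was -0.04, -0.14 and 0.05. With a 75th percentile shift the member medians were 0.16, -0.05 and 0.16, where those of all genes moved to 0.04, 0.05 and -0.07. Without Lamin B2 Kd replicate 3, which leaves slide 1 alone, the median of the members was -0.13 upon Lamin B2 Kd and 0.14 between the knockdowns, and 12 members passed between the knockdowns, 9 of them higher upon Lamin A/C Kd, where 19.4% of all genes passed.

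**Figure D3:**
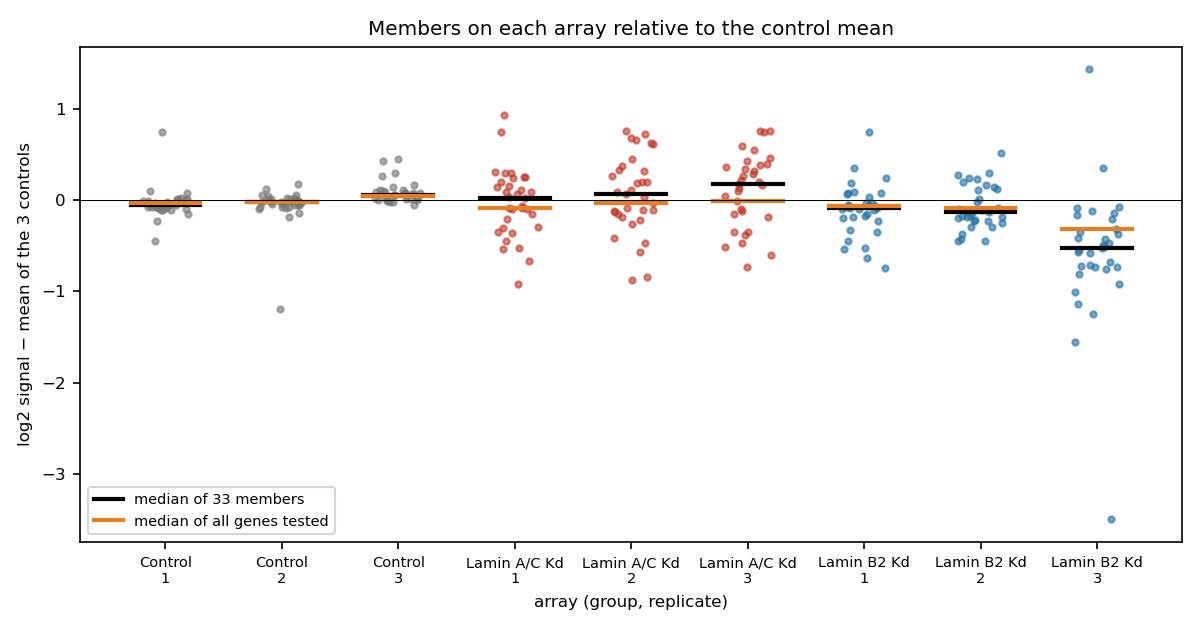
Deviation of each of the 33 tested members from its mean over the 3 controls (log2, points) on each of the 9 arrays, with the median of the members in black and that of all genes tested in orange. The medians of the members lie between -0.13 and 0.18 on 8 arrays and at -0.52 on Lamin B2 Kd replicate 3, where the median of all genes is -0.32.

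Complete separation of the arrays was counted as well, and was found for 40.8% of all genes upon Lamin A/C Kd, 32.9% upon Lamin B2 Kd and 32.4% between the knockdowns. Upon Lamin B2 Kd, 13 members lay wholly below controls and 1 wholly above, where 27.3% and 5.62% of all genes did. Upon Lamin A/C Kd, 10 lay wholly above and 10, IFI44L among them, wholly below controls, where 15.6% and 25.2% of genes did. Between the knockdowns, 12 were wholly higher upon Lamin A/C Kd and 2 wholly lower, where 21.9% and 10.4% of genes were.

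Of 18 interferon genes on the arrays, IFNA1, IFNA4, IFNE1, IL29 (IFNL1) and IL28A (IFNL2) were above background on all 9 arrays and 4 others on some. Their summed signal was 21.8, 7.53 and 6.52 times the array median in controls, with the high value on replicate 1 alone, 6.96 to 7.59 upon Lamin A/C Kd and 7.06 to 7.96 upon Lamin B2 Kd, with IFNA4 the brightest. The remaining 9, IFNB1, IFNG, IFNK, IFNW1, IL28B (IFNL3) and 4 of the alpha interferons were not above background on any array. None of the 5 that could be tested passed in any comparison, at an adjusted or an unadjusted p below 0.05 (limma). All 9 interferon receptor and kinase genes were detected on every array. IFNAR1, a subunit of the type I receptor, rose by 0.64 ± 0.13 upon Lamin B2 Kd, from 2.55, 2.61 and 2.60 to 3.25, 3.08 and 3.36 (adjusted p = 0.0374), and was 2.17, 2.48 and 2.54 upon Lamin A/C Kd. Its difference between the knockdowns was -0.83 ± 0.13 (adjusted p = 0.00425). IL10RB, a subunit of the type III receptor, fell by 0.90 ± 0.17 upon Lamin A/C Kd, from 1.33, 1.52 and 1.59 to 0.32, 0.80 and 0.63 (adjusted p = 0.0126), with 1.05, 1.49 and 1.31 upon Lamin B2 Kd. Between the knockdowns IL10RB differed by -0.70 ± 0.17 (adjusted p = 0.0212). The call for IFNAR1 upon Lamin B2 Kd was lost under 10 of the 19 alternatives, among them the omission of any control array, of Lamin A/C Kd replicate 2 or 3 or of Lamin B2 Kd replicate 1, with an adjusted p of up to 0.15, whereas its call between the knockdowns was kept under all 19. IL10RB no longer passed against control without control replicate 2 or 3 or Lamin A/C Kd replicate 1, nor between the knockdowns without Lamin A/C Kd replicate 1 or 3 or Lamin B2 Kd replicate 2.

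Of 16 tested genes for RNA-sensing adaptors, kinases and further sensors, ZC3HAV1 was the 1 that passed against control. ZC3HAV1, the zinc-finger antiviral protein, binds CpG-rich viral RNA and directs its decay. It stood at 5.28, 5.34 and 5.28 in controls, at 2.86, 2.96 and 3.50 upon Lamin A/C Kd and at 5.40, 5.26 and 5.36 upon Lamin B2 Kd. It fell by 2.20 ± 0.16 on the log2 scale upon Lamin A/C Kd (limma, adjusted p = 0.000348) and differed by 0.04 ± 0.16 upon Lamin B2 Kd. Of its other probes, 1 gave -0.47 (adjusted p = 0.382) upon Lamin A/C Kd. The remaining probe lay wholly below controls there and passed (adjusted p = 0.01045). It was well above background on 1 of the 3 Lamin A/C Kd arrays, so that the size of its fall was not measured. Between the knockdowns ZC3HAV1 differed by -2.24 ± 0.16 (adjusted p = 0.000205), a call kept under all 19 alternatives. Its other probes were lower upon Lamin A/C Kd in that comparison too and passed (adjusted p of 0.0295 and 0.00373). RNF135, a ubiquitin ligase that acts on RIG-I, was 0.53 ± 0.13 higher upon Lamin A/C Kd than upon Lamin B2 Kd (adjusted p = 0.0288), a call lost without any 1 of the control arrays or without Lamin A/C Kd replicate 2 or 3.

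Among DNA-sensing genes, TMEM173 (STING), the adaptor for cyclic dinucleotides, rose by 0.66 ± 0.14 upon Lamin A/C Kd, from 5.15, 5.09 and 5.24 to 5.83, 5.83 and 5.81 (adjusted p = 0.0183). It was 5.24, 5.28 and 4.84 upon Lamin B2 Kd. The call against control was lost when any 1 control or Lamin A/C Kd array was left out (adjusted p of up to 0.0773). Between the knockdowns TMEM173 differed by 0.70 ± 0.14 (limma, adjusted p = 0.0092), which was kept under all 19 alternatives. TREX1, the exonuclease that clears cytosolic DNA, fell by 0.90 ± 0.19 upon Lamin B2 Kd, from 3.48, 3.35 and 3.42 to 2.66, 2.80 and 2.09 (adjusted p = 0.0379), with 2.88, 3.26 and 3.12 upon Lamin A/C Kd. Its other probes gave -0.73 (adjusted p = 0.0448) and -0.54 (adjusted p = 0.0902). This call was lost under 11 of the 19 alternatives, including the omission of any control or Lamin A/C Kd array or of Lamin B2 Kd replicate 1 (adjusted p of up to 0.152). The sensor of cytosolic DNA, CGAS (C6orf150 on the array), and IFI16 were above background on some arrays only, and AIM2 on none.

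The 11 negative regulators of interferon signaling were all detected on every array. SOCS3, which shuts off JAK-STAT signaling, went from 0.59, 0.52 and 0.57 in controls to 1.84, 1.72 and 1.25 upon Lamin A/C Kd and 1.60, 1.17 and 1.48 upon Lamin B2 Kd. The gain was 1.04 ± 0.17 upon Lamin A/C Kd (adjusted p = 0.00872), or 2.06-fold, and 0.86 ± 0.17 upon Lamin B2 Kd (adjusted p = 0.0355). The first was kept under all 19 alternatives and the second was lost under 12, with an adjusted p of up to 0.14, among them the omission of any 1 array other than Lamin A/C Kd replicate 3 and Lamin B2 Kd replicate 2. Its relative SOCS1 rose by 0.55 ± 0.11 upon Lamin A/C Kd, from 1.09, 0.97 and 1.20 to 1.62, 1.70 and 1.58 (adjusted p = 0.0177), with 0.93, 0.88 and 1.03 upon Lamin B2 Kd. A second probe for SOCS1 gave 0.17, and the call was lost with the mean of the probes or without any 1 control array or Lamin A/C Kd replicate 1 or 2. Between the knockdowns SOCS1 differed by 0.69 ± 0.11 (limma, adjusted p = 0.0043), which was lost under 1 of the 19 alternatives, the mean of the probes. TNFAIP3 (A20), which edits ubiquitin chains on signaling proteins, rose by 0.71 ± 0.13 upon Lamin A/C Kd (adjusted p = 0.0128), and the phosphatase gene PTPN11 fell by 0.55 ± 0.14 (adjusted p = 0.0402). TNFAIP3 no longer passed without control replicate 1 or 2, nor PTPN11 without any 1 of the control or Lamin A/C Kd arrays, and both calls were lost with the mean of the probes. A second probe for TNFAIP3 gave 0.33 (adjusted p = 0.395), and 3 further probes for PTPN11 gave -0.60, -0.43 and -0.33 without passing. Between the knockdowns TNFAIP3 differed by 0.60 ± 0.13 (limma, adjusted p = 0.016), which was lost under 4 of the 19 alternatives. NLRX1, a mitochondrial protein that restrains RNA-sensing signals, fell by 0.91 ± 0.16 upon Lamin B2 Kd, from 4.80, 4.88 and 4.98 to 4.17, 4.14 and 3.63 (adjusted p = 0.0222). It was 5.28, 5.16 and 5.36 upon Lamin A/C Kd, above all controls, and the knockdowns differed by 1.29 ± 0.16 (adjusted p = 0.00135). Upon Lamin B2 Kd its call was lost when any 1 control array was left out.

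**Figure D4:**
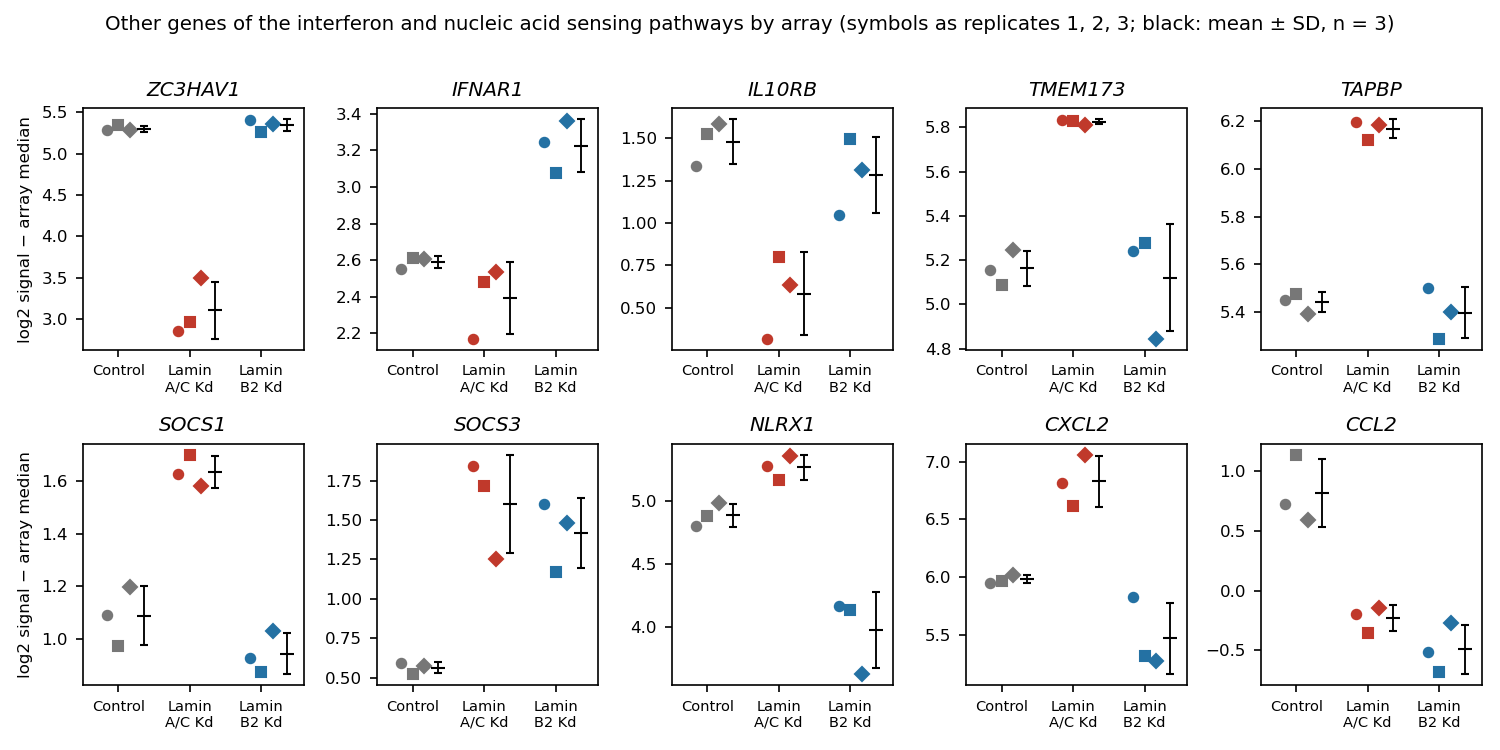
Log2 signal minus the array median on each of the 9 arrays for 10 genes of interferon reception, nucleic acid sensing, feedback and inflammation that passed against control, with replicates 1, 2 and 3 as circle, square and diamond and the mean ± SD (n = 3) in black. ZC3HAV1 stands between 2.86 and 3.50 upon Lamin A/C Kd and between 5.26 and 5.40 on all other arrays, SOCS3 is above control and CCL2 below control in both knockdowns.

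A further list held 33 interferon-stimulated genes outside the 39. At an unadjusted p below 0.05, 8 of 25 (32.0%) differed upon Lamin A/C Kd, 5 of 26 (19.2%) upon Lamin B2 Kd and 9 of 26 (34.6%) between the knockdowns, against 23.2%, 24.5% and 29.5% of all genes. Of the 25 tested upon Lamin A/C Kd, SP110, a nuclear body protein, was the 1 that passed. It fell by 0.57 ± 0.11, from 3.71, 3.61 and 3.60 to 2.98, 3.04 and 3.18 (adjusted p = 0.0145), with 3.71, 3.65 and 3.53 upon Lamin B2 Kd. It no longer passed without any 1 control array or Lamin A/C Kd replicate 1 or 2. None of 26 passed upon Lamin B2 Kd (limma). Between the knockdowns the median difference over 26 genes was 0.00, UBE2L6 (the E2 enzyme for ISG15, 0.58 ± 0.15, adjusted p = 0.0313) and NMI (a partner of STAT proteins, 0.42 ± 0.12, adjusted p = 0.0402) were higher upon Lamin A/C Kd, and SP110 (-0.56 ± 0.11, adjusted p = 0.01) and CD274 (PD-L1, -0.37 ± 0.11, adjusted p = 0.0488) were lower. Of these, UBE2L6 no longer passed without control replicate 1 or any 1 Lamin A/C Kd array, and NMI and CD274 each lost their call under 11 of the 19 alternatives, any omitted control array included. CXCL10, a chemokine strongly induced by interferon, was not above background on any array. Of 9 transcription factors beyond the members, including IRF9, none passed against control (limma, 2 at an unadjusted p below 0.05 upon Lamin A/C Kd, 4 upon Lamin B2 Kd), and IRF5 was 0.69 ± 0.18 higher upon Lamin A/C Kd than upon Lamin B2 Kd (adjusted p = 0.0317), which was lost without any 1 control or Lamin A/C Kd array.

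Among 11 tested NF-kB-driven inflammatory genes, which share the upstream sensors, CXCL2, CXCL1 and CCL20 differed between the knockdowns and CCL2 fell in both. CXCL2, which attracts neutrophils, rose by 0.85 ± 0.17 upon Lamin A/C Kd, from 5.95, 5.97 and 6.02 to 6.81, 6.61 and 7.06 (adjusted p = 0.0185), a call lost without any 1 control array or Lamin A/C Kd replicate 1 or 3. It was 5.83, 5.31 and 5.27 upon Lamin B2 Kd, and the knockdowns differed by 1.36 ± 0.17 (adjusted p = 0.00165). A second probe for CXCL2 gave 0.49 upon Lamin A/C Kd without passing (limma, adjusted p = 0.123) and 1.02 between the knockdowns (adjusted p = 0.006). CCL2, which attracts monocytes, fell in both, from 0.73, 1.14 and 0.60 to -0.20, -0.35 and -0.14 upon Lamin A/C Kd and to -0.52, -0.68 and -0.27 upon Lamin B2 Kd. It fell by 1.05 ± 0.17 (adjusted p = 0.00781) and, upon Lamin B2 Kd, fell by 1.31 ± 0.17 (adjusted p = 0.00902, or 0.0575 without control replicate 3). Between the knockdowns CCL2 differed by 0.26 (adjusted p = 0.343) and CXCL1 by 0.55 (adjusted p = 0.0107). CXCL1 was -0.48 ± 0.11 from control upon Lamin B2 Kd (adjusted p = 0.047), which was lost under 14 of the 19 alternatives, both other scalings and the omission of any 1 array other than Lamin B2 Kd replicate 3 among them, with an adjusted p of up to 0.267. IL8 met the 2-fold criterion upon Lamin B2 Kd with 1.01 ± 0.37 but not the adjusted threshold (adjusted p = 0.153), with 2.20, 1.90 and 3.65 there against 1.66, 1.51 and 1.54 in controls, so that replicate 3 supplied most of the difference. CCL20, an attractant for lymphocytes and dendritic cells, was 0.93 ± 0.14 lower upon Lamin A/C Kd than upon Lamin B2 Kd (log2 difference of -0.93, adjusted p = 0.00326), the opposite order to CXCL2 and to TNFAIP2, a TNF-induced gene that was 0.87 ± 0.16 higher upon Lamin A/C Kd (adjusted p = 0.00698).

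The RNA interference machinery, as listed here, was detected in full. Of its 11 genes, DICER1 rose by 0.65 ± 0.15 upon Lamin A/C Kd (adjusted p = 0.0306) on its brightest probe, while a second probe gave 0.19 and the call was lost without any 1 control or Lamin A/C Kd array. The Argonaute gene AGO4 (EIF2C4 on the array) fell by 0.80 ± 0.17 upon Lamin B2 Kd (adjusted p = 0.037) and was 1.32 ± 0.17 higher upon Lamin A/C Kd than upon Lamin B2 Kd (adjusted p = 0.00148). The latter was kept under all 19 alternatives, and the call upon Lamin B2 Kd was lost under 12, including the mean of its probes and the omission of any control or Lamin A/C Kd array or of Lamin B2 Kd replicate 1. TNRC6B, a partner of Argonaute proteins in silencing, was 0.81 ± 0.18 higher in the same comparison (adjusted p = 0.0182), but not past the threshold without Lamin A/C Kd replicate 1 or 3.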

How the data were processed

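RNA from DLD1 cells was hybridized to 9 Agilent single-color arrays. The deposited scanner files hold the processed signal intensity of each spot, which the authors' feature extraction software had already background-subtracted and detrended (Agilent Feature Extraction 10.7.3.1 per the file headers, 10.5 in the submitters' processing notes). A second deposited table holds log2 values after the authors' 50th percentile shift, with blanks in 20266 of 50238 rows, and served as an alternative. No column of the authors' own comparisons was used.

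Here the log2 intensity minus the array median was averaged over spots of a probe without outlier flags, and probes with a missing value on an array were left out of the fit. Testing was restricted to probes with at least 0.5 of their spots flagged well above background in each of the 3 replicates of 1 or both groups compared (33042, 33443 and 33044 probes). All 3 contrasts came from 1 limma 3.58.1 fit (R 4.3.3), with Benjamini-Hochberg adjustment over all probes. The brightest tested probe by its mean over 9 arrays stood for a gene. The fit was tested on simulated data, in which 200 of 32828 probes were changed by 1.5 log2 units. At an adjusted p below 0.05 it recovered 78% of them for Lamin A/C Kd against control and 74.5% for Lamin B2 Kd. It also called 4 and 2 unchanged probes. Smaller changes, such as those of the members, were not simulated. No spot was saturated, and 9 arrays limit the precision.

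The members and lists were chosen with earlier results of these data known. Per-array values were given for members that passed in any comparison and, in a role without one, for the 2 members with the smallest unadjusted p against control. From each further list, up to 3 genes per direction and comparison were named by size of change. DDX58, ISG15, MX2, IFI35, RSAD2 and GBP1 were shown in addition after their values were seen. Antigen-presentation genes other than TAPBP and ERAP2 were likewise added. Promoter sequences came from the RefSeq table for GRCh38.p14, whereas the array annotation is on an older build, and no array coordinates were used. Arrays with the same replicate number in their titles had correlations between -0.05 and 0.09, and the samples were fitted as unpaired. The authors' table numbers the Lamin B2 Kd arrays in another order, and pairing by that order was not tested.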

Additional observations from a re-analysis of the deposited data

Results flagged for a closer look

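The response to Lamin A/C Kd differed from that to Lamin B2 Kd for 9 of the 32 members tested, by the limma contrast of the knockdowns. Of all genes, 15.7% passed in this contrast, 11.2% higher upon Lamin A/C Kd and 4.53% lower. The log2 difference was 0.97 for IFIT1, 0.80 for MX1, 0.79 for HERC5, 0.71 for IFI6, 0.65 for IFITM1, 0.62 for USP18, 0.59 for ISG20 and 0.52 for IFIT2, all higher upon Lamin A/C Kd, and -0.48 for TAP1, lower upon it. IFIT1 and MX1 passed under all 19 alternatives tried, of which slide as a block and the omission of Lamin B2 Kd replicate 3 are 1 fit under different names, IFI6, IFIT2 and USP18 under 17, ISG20 under 14, HERC5 under 11, and IFITM1 and TAP1 under 7. Among omissions of 1 array, IFIT2 no longer passed without Lamin A/C Kd replicate 1, USP18 without its replicate 3 and ISG20 without any 1 of its arrays. HERC5 no longer passed without Lamin A/C Kd replicate 1 or 3, Lamin B2 Kd replicate 1 or control replicate 3. IFITM1 still passed without Lamin B2 Kd replicate 1 or 3 and TAP1 without Lamin B2 Kd replicate 3, and neither did without any other array.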

How the results depend on the processing

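The 10 other settings and the omission of each of the 9 arrays left the direction of every gene named as passing as it was. Slide as a block and the omission of Lamin B2 Kd replicate 3 are the same fit under different names, since that array was alone on its slide. Against control, IFIT2 and TAP1 passed upon Lamin A/C Kd under all 19, ISG20 under 17 and PLSCR1 under 10, while upon Lamin B2 Kd IFIT1 and MX1 passed under 8 and USP18 under 6. Members passing upon Lamin A/C Kd numbered 7 with the 75th percentile shift, 8 with quantile normalization, 9 with slide as a block, 8 with only the 2 groups compared in the fit, and 2 to 9 with 1 array left out, where the share of all genes passing went from 8.94% to 15.2%, 14.3%, 20.9%, 20.2% and 2.92% to 20.9%. Upon Lamin B2 Kd, 4 passed with quantile normalization, ISG20 upward and 3 downward, and 4 with normexp, all downward. Of all genes, 4.64% and 10.4% passed there, against 4.39% before these changes. No member passed in the authors' table (limma, 10 at an unadjusted p below 0.05) or without the filter on detection (9). With only the 2 groups compared 0 passed (limma, 6 at an unadjusted p below 0.05), and 0 to 3 with 1 array left out. The share of all genes was 0.668% without the filter, 0.0453% with only the 2 groups compared and 0.731% in the authors' table. With 1 array left out it was 0.077% to 6.46%. Between the knockdowns, 4 passed in the authors' table, 3 with only the 2 groups compared, and 4 to 12 with 1 array left out, where 6.73%, 7.91% and 8.98% to 19.4% of all genes passed. The study's criterion was met by 1 member, GBP1, upon Lamin B2 Kd without the filter, and between the knockdowns by 1, again GBP1, without the filter and in the authors' table. With 1 array left out it was met by 0 to 1 upon Lamin B2 Kd and by 0 to 2 between the knockdowns (IFIT1, IFI35 or both). The 1 upon Lamin B2 Kd was IFI44L without Lamin B2 Kd replicate 2, a gene near background whose difference was not measured in size. The median of the members upon Lamin A/C Kd was 0.16 with quantile normalization and -0.0155 to 0.15 with 1 array left out, the lowest without Lamin A/C Kd replicate 3. Between the knockdowns it was 0.16 with the 75th percentile shift, 0.16 with normexp, 0.14 with slide as a block, and 0.14 to 0.38 with 1 array left out. The causes of these shifts were not tested. With the replicate number as a block, 3, 0 (limma, 6 at an unadjusted p below 0.05) and 7 members passed upon Lamin A/C Kd, upon Lamin B2 Kd and between the knockdowns. Of all genes, 4.66%, 0.834% and 10.9% passed with this block. This block used the numbers in the sample titles, with same-number correlations from -0.05 to 0.09. The authors' table numbers the Lamin B2 Kd arrays in another order, under which the correlations with controls were 0.11, 0.05 and 0.08. A block in that order was not fitted, so that the block is hard to read. Genes near background have little room to fall, and 9 arrays limit the precision.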
